A study of Homo sapiens with 8 samples.

Results

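IMR90 human fetal lung fibroblasts were kept in inflachromene (ICM) for 3 or for 6 days, and the comparison described here is that of the 2 libraries titled ICM 6 days with the 2 titled ICM 3 days, 4 of the 8 libraries in the series. The titles name factory RNA-seq, a protocol that isolates transcription factories and so enriches for RNA that is still being made, and read pairs were counted on the exons of each gene. Of 28265 annotated genes, 15845 carried enough counts in these 4 libraries to be tested. The question is which transcripts differed between the shorter and the longer exposure.

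Both groups were IMR90, a single diploid cell line with no transgene and no genetic change named in the labels, and both were exposed to ICM without interruption, at 10 µM according to the supplement to the study. The labels themselves give the days but no dose and no solvent. A control group of 2 libraries titled young, from the same line without ICM, was used only for levels set beside the values, and the remaining pair, titled MetaICM, was not used here. The labels name poly(A) RNA as the molecule, and their extraction text describes poly(A) selection of total RNA rather than the isolation of factories, so how far the counts reflect nascent or total RNA is not settled by the sources used here. Nothing in the labels ties the 2 libraries of a group to separate cultures, so p-values measure the spread between these libraries, which may be technical. They also do not give the hour of harvest, so that days in ICM, days in culture and hour of harvest cannot be told apart. Because each library pools RNA from many cells, fewer cells of a kind and less RNA per cell cannot be told apart either.

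ICM is a small molecule that binds HMGB1 and HMGB2, abundant proteins that bend DNA and that leave the nucleus when fibroblasts enter senescence, a lasting arrest of growth. Senescent fibroblasts are known for altered matrix, for secreted cytokines, proteases and growth factors, and for loss of chromatin proteins and histone transcripts.

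The libraries held 21230563 and 14400220 counted read pairs after 3 days and 18386385 and 18898154 after 6 days, against 17595574 and 12095123 in the control. Over all genes tested, the 2 libraries of a group correlated more strongly with each other (Pearson's r of log2 values 0.993 within 3 days and 0.995 within 6 days) than with those of the other day (0.983 to 0.985), a description across genes, which are not independent replicates. All 10 fibroblast markers were tested, and 2 of them, COL1A1 and FAP, were called lower after 6 days. The summed level of the 10 lay between 13240 and 14740 CPM (counts scaled to a library of 1000000 pairs) after 3 days. It lay between 11190 and 11620 after 6 days and between 24170 and 24220 in the control. Members went both ways. COL1A1 fell from 3718 and 3611 to 1923 and 1898 CPM, and PDGFRA, not called, from 549 and 545 to 448 and 368. DCN rose from 492 and 466 to 666 and 618 CPM and LUM from 86.1 and 74.9 to 108 and 111, neither being called. All 8 epithelial markers were below 1 CPM in the 4 libraries, with NKX2-1 at 0, and so were 6 of 8 blood markers, with CD3E at 0. The 7 endothelial markers summed to 132 to 137 CPM after 3 days and 167 to 201 after 6 days. Nearly all of this was TEK, at 131 and 126 CPM after 3 days and 194 and 161 after 6 days. Of the 7, 4 were below 1 CPM in the 4 libraries and 0 were called.

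A gene was called when edgeR's quasi-likelihood test gave a Benjamini-Hochberg adjusted p under 0.05 over all genes tested and an absolute log2 fold change (log2FC, 6 minus 3 days) over 0.6. By this rule 559 genes were higher after 6 days, 3.53% of those tested, and 719 were lower, 4.54%, so that 8.07% were called in either direction. The libraries of the 2 days did not overlap in CPM for any called gene, but that held for 59.3% of all genes tested as well. The median absolute log2FC of called genes was 0.90, and it exceeded 1 for 209 genes on the higher side and 307 on the lower. The median log2FC over all genes tested was -0.01, the background for every gene group below.

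**Figure D1:**
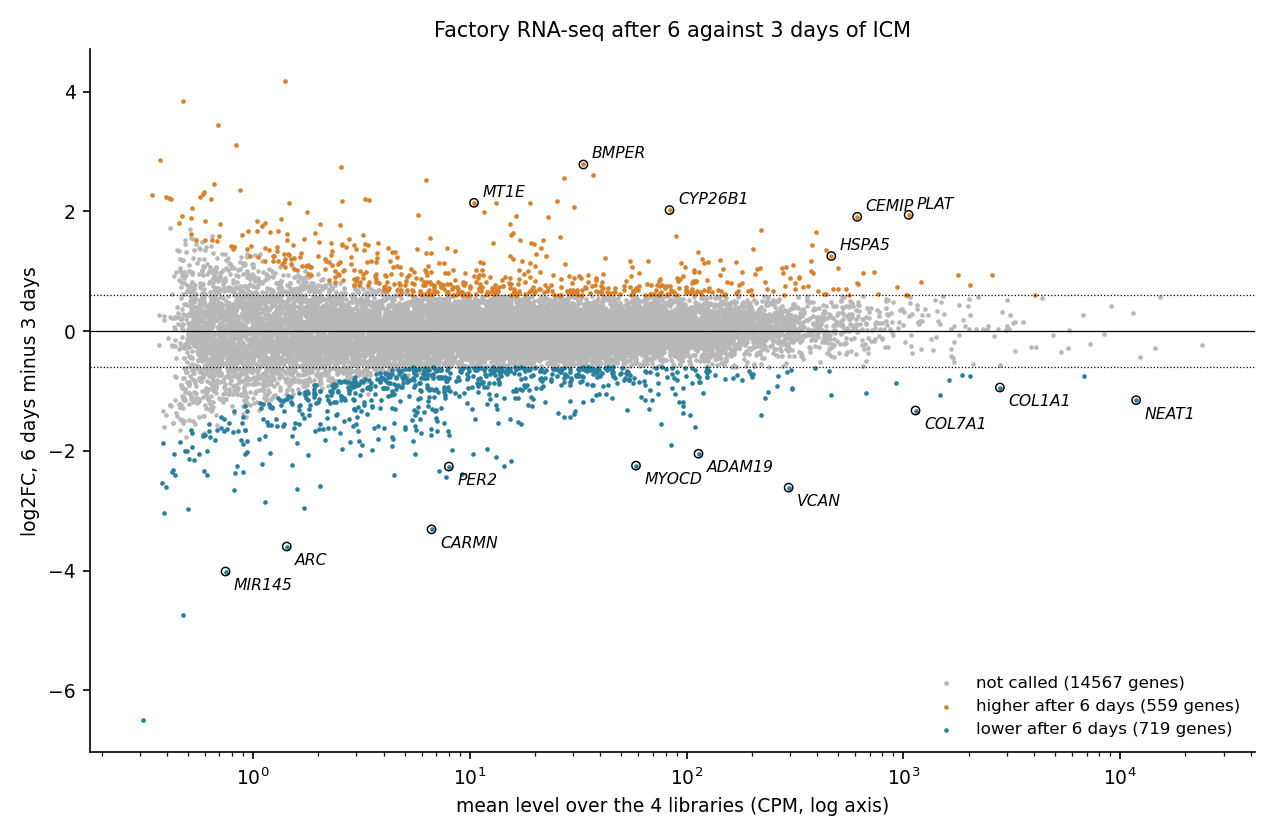
Each point is 1 of the 15845 genes tested, by its mean level over the 4 ICM libraries (horizontal, CPM on a log axis) and its log2FC of 6 minus 3 days (vertical); orange points were called higher (559), blue points lower (719), and dotted lines mark a log2FC of 0.6 in each direction. Among the labelled genes MIR145 lies lowest at -4.01, followed by ARC at -3.60, CARMN at -3.31 and VCAN at -2.61, and BMPER is uppermost at 2.79.

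The largest increase among genes averaging at least 5 CPM was that of BMPER, a secreted protein that binds BMPs outside the cell. BMPER (hg19, chr7:33944527-34196039, plus strand) stood at 7.18 and 9.99 CPM after 3 days and at 52.6 and 63.9 after 6 days, a log2FC of 2.79 ± 0.15 (SE, n = 2 libraries a group, edgeR adjusted p = 1.709e-10). The control libraries lay between the days, at 29.6 and 26.0 CPM. SLC16A6, a carrier of the monocarboxylate transporter family, rose from 10.7 and 9.99 to 61.9 and 64.8 CPM (2.61 ± 0.12). FER1L6, of the ferlin family of membrane proteins, rose from 8.08 and 7.66 to 50.3 and 42.9 CPM (2.56 ± 0.13), where the control had 1.96 and 1.03. The control levels thus lay above both 3-day libraries for BMPER and below them for FER1L6.

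The same group of 12 held TMEM71 (2.53), the matrix protein gene MAMDC2 (2.17), the lipid transporter gene ABCA8 (2.14), the phosphatase gene PTPRQ (2.08) and RGS18, a brake on G protein signalling (1.99). KIT, the receptor for stem cell factor, stood at 4.74 and 5.06 CPM after 3 days and 20.3 and 22.8 after 6 days (2.14 ± 0.16), close to the 18.5 and 20.6 CPM of the control. CYP26B1 encodes an enzyme that clears retinoic acid. It went from 32.8 and 33.1 to 126 and 142 CPM (2.02 ± 0.10), and its control libraries, at 5.09 and 6.81, lay below both days. MT1E and CCL2 complete the 12 and are described with their families. PLAT, tissue plasminogen activator, which turns plasminogen into plasmin, was named for its small p-value and rose from 459 and 414 to 1721 and 1639 CPM (1.94 ± 0.09), with 378 and 271 in the control.

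On the lower side, CARMN changed most among genes of that level. It is the long noncoding RNA at the MIR143 and MIR145 locus and is known from smooth muscle. VCAN encodes versican, the large hyaluronan-binding proteoglycan of the fibroblast matrix. VCAN (hg19, chr5:82767493-82878122, plus strand) fell from 478 and 538 to 87.8 and 78.5 CPM, a log2FC of -2.61 ± 0.10 (edgeR adjusted p = 3.497e-12), below the 871 and 1005 CPM of the control. BMF, a BH3-only activator of cell death, fell from 15.4 and 15.5 to 3.06 and 2.85 CPM (-2.38 ± 0.18), and the control had 9.51 and 8.62. Also among these 12 were PER3, PER2, MYOCD and COL5A3, taken up with their groups, as well as SNCAIP, a synuclein-binding protein (-2.34), VAT1L (-2.09) and the cytochrome P450 gene CYP2S1 (-2.05). The last of them were NREP (-2.24) and STARD4-AS1 (-2.17), but 190 exon bases of NREP lie on the strand opposite STARD4-AS1. Reads were counted without strand, so those of NREP and STARD4-AS1 in the shared stretch were given to neither. ADAM19, a membrane-bound metalloprotease, was named for its small p-value and fell from 180 and 185 to 46.4 and 42.1 CPM (-2.05 ± 0.10). Pairs were likewise left out on exon bases that MYOCD (704), PMEPA1 (331), FER1L6 (273), PCOLCE (269), TPM1 (207), CEMIP (203) and other genes described below share with a gene on the opposite strand.

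**Figure D2:**
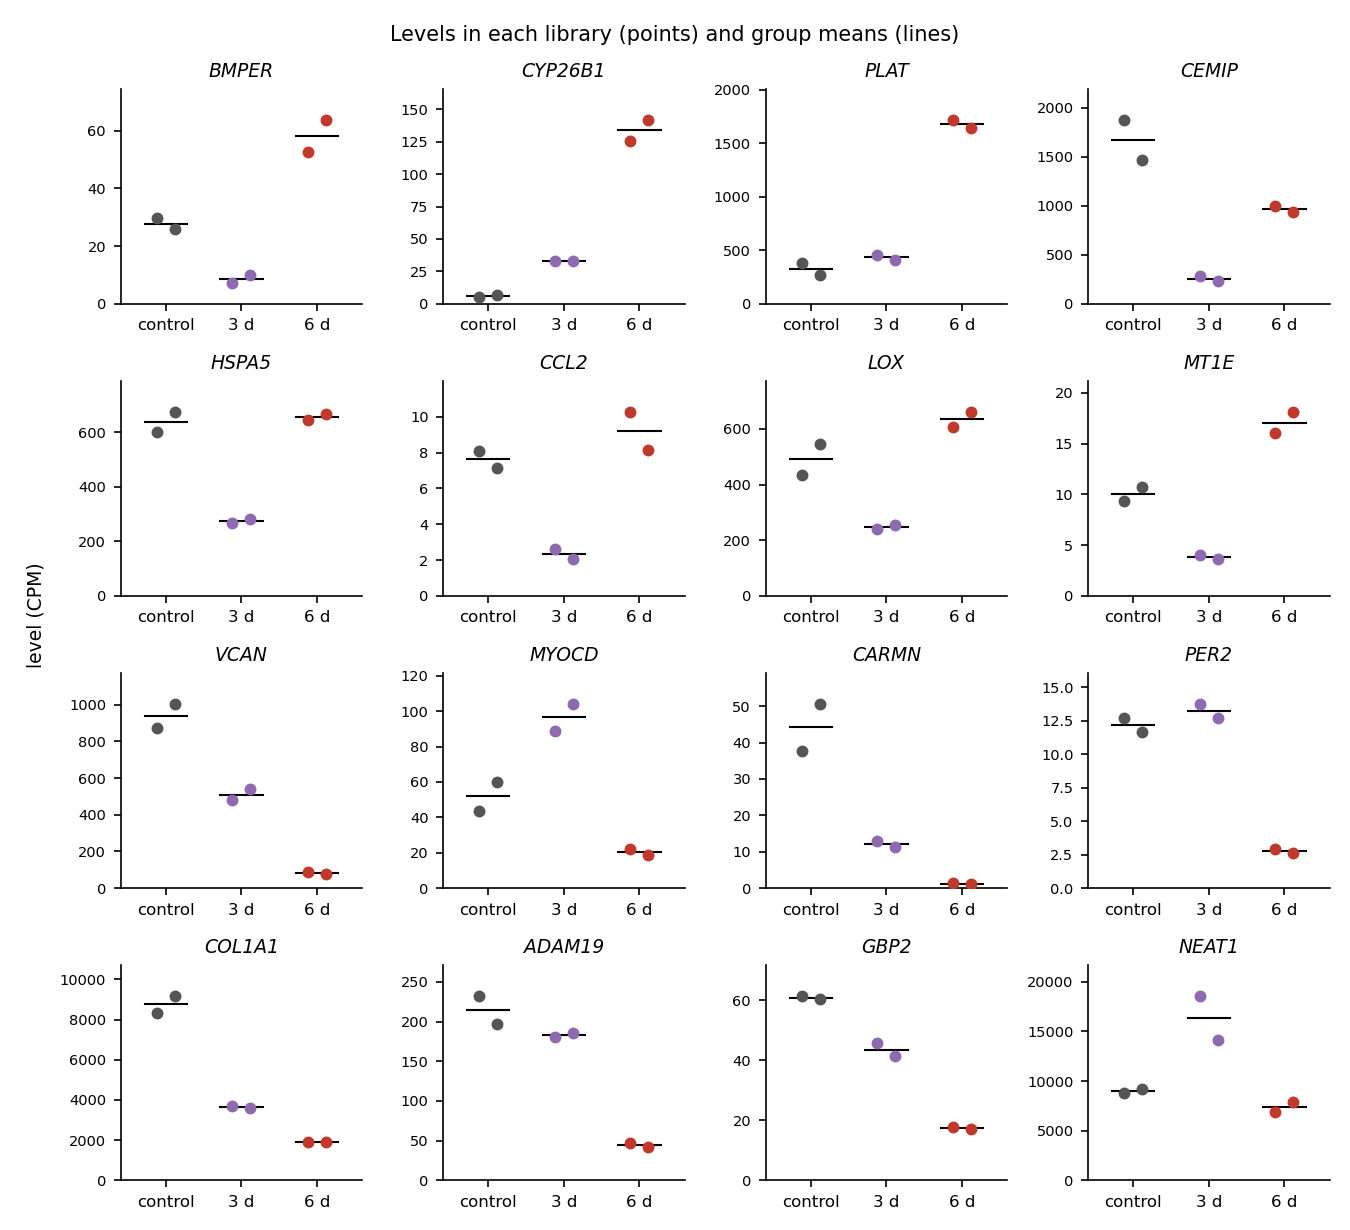
Level (vertical, CPM, each panel with its own scale from 0) of 16 genes in each control, ICM 3 days and ICM 6 days library; each point is 1 library, each line a group mean and each panel 1 gene. The 16 are called genes, so their 3-day and 6-day points do not overlap, which held for every called gene and for 59.3% of all genes tested. The control points lie above, between or below them depending on the gene: VCAN had 871 and 1005 CPM in the control and CYP26B1 5.09 and 6.81.

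Calls in the lower direction were more frequent among GC-rich genes. Where exons were at least 60% GC, 1.15% of 2175 genes were higher after 6 days and 8.37% lower, whereas among genes of 20 to 40% GC 6.03% of 2456 were higher and 2.28% lower. The median log2FC went from 0.09 in the poorest class to -0.18 in the richest. The libraries did not contribute equally. In the richest class the median deviation from the 4-library mean was 0.15 on the log2 scale in 3-day replicate 1, 0.01 in 3-day replicate 2, and -0.08 in both 6-day libraries. A fit in which the GC trend of each library was removed, an alternative chosen after seeing the data, called 517 genes higher and 663 lower, of which 452 and 576 were among the genes called without it. The part of GC content in any single gene's result was not tested beyond this fit. For lists with more than 3 calls in a direction, its counts stand below where they differ by more than 1.5 times.

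**Figure D3:**
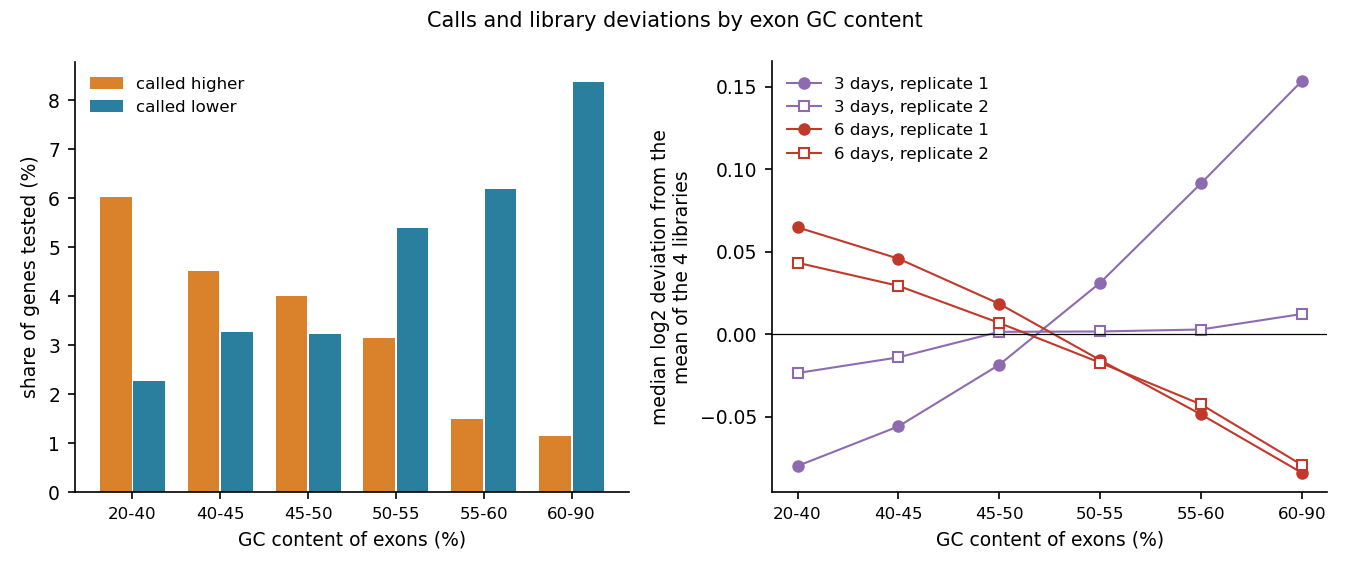
Share of genes called (left, %) by the GC content of their exons and, at right, the median deviation of each library from the 4-library mean in the same GC classes (log2). The share called lower runs from 2.28% to 8.37% and the share called higher from 6.03% to 1.15%, and 3-day replicate 1 departs most in the class of at least 60% GC, at 0.15.

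Across gene groups, the shares called differed widely. Every count below is to be set beside the 3.53% higher and 4.54% lower of all genes tested. In all, 43 lists of pathways and families were described, and the plot of gene lists shows 18 of them. The lists were chosen with earlier results of these data known, so their shares describe them and test nothing. Counts of 3 calls or fewer in a list are less firm, since they moved by up to 3 with 1 library left out, by DESeq2 or after GC correction. Of 20 clock genes tested, 9 were lower and 0 higher (3 were higher at an unadjusted p under 0.05, and DESeq2 called 0). Of 48 genes of the amino acid and endoplasmic reticulum stress responses 8 were higher, and edgeR called 0 lower (1 at an unadjusted p under 0.05, and 0 by DESeq2).

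**Figure D4:**
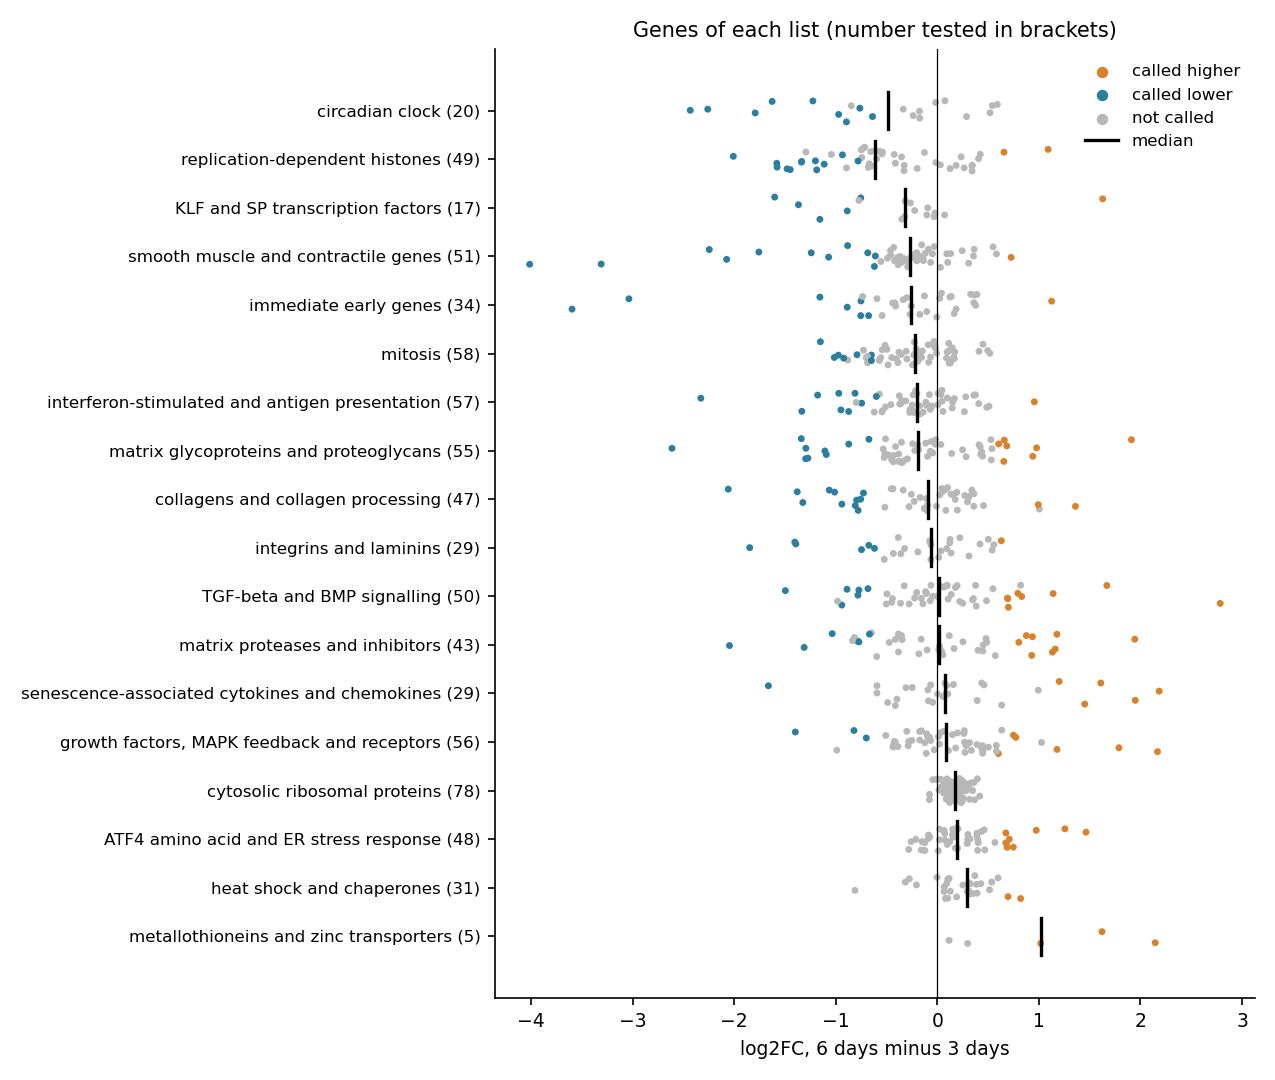
Log2FC (horizontal, 6 minus 3 days) of every tested member of 18 gene lists, 1 list a line with the number tested in brackets, with the list median as a bar; orange and blue points are members called higher and lower. The median lies near -0.61 for the replication-dependent histones and -0.49 for the clock genes and near 1.02 for the metallothioneins and zinc transporters, of which 5 were tested, against -0.01 over all genes.

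Genes of the extracellular matrix changed in both directions. Of 47 collagens and collagen-processing genes tested, 11 fell and 2 rose, with a median log2FC of -0.09. Fibrillar collagen chains did not move together. COL1A1, the first chain of type I collagen (hg19, chr17:48261457-48279000, minus strand), fell from 3718 and 3611 to 1923 and 1898 CPM (-0.94 ± 0.09, edgeR adjusted p = 2.658e-07). COL1A2, which supplies the partner chain, stood at 4855 and 4048 after 3 days and 3849 and 3610 after 6 days (-0.26 ± 0.10, adjusted p = 0.07273), and COL3A1 at 3137 and 2736 against 3065 and 2903 (0.02 ± 0.09, adjusted p = 0.8945). The COL1A1 libraries were all below the control, which had 8338 and 9171 CPM.

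COL5A3, a minor fibrillar chain, had the largest decrease of the collagens, from 17.05 and 16.2 to 3.77 and 4.20 CPM (-2.06 ± 0.17). The basement membrane chain COL4A1 fell from 2137 and 1844 to 1000 and 904 CPM (-1.06 ± 0.10). COL7A1, the chain of anchoring fibrils, fell from 1689 and 1564 to 623 and 676 CPM (-1.32 ± 0.09), although both days were above the control, at 535 and 384 CPM. COL6A3, of the beaded filaments around cells, fell from 8613 and 8518 to 5090 and 5062 (-0.75 ± 0.09). Among processing enzymes the directions were opposite. PCOLCE, which speeds the trimming of procollagen, fell from 43.4 and 43.9 to 16.1 and 17.4 CPM (-1.38 ± 0.11). LOX, the lysyl oxidase that cross-links collagen and elastin, rose from 240 and 254 to 608 and 662 CPM (1.36 ± 0.09), and P3H2, a prolyl 3-hydroxylase, from 118 and 124 to 241 and 240 (0.99 ± 0.09). With the GC-corrected fit 8 collagen genes fell in place of 11.

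Of 55 matrix glycoproteins and proteoglycans, 9 fell and 7 rose (median -0.19). Beside VCAN, the members that fell included POSTN, periostin, from 90.2 and 99.5 to 41.2 and 36.2 CPM (-1.29 ± 0.10), and TNC, tenascin-C, from 1165 and 1219 to 631 and 672 CPM (-0.87 ± 0.09). BGN, the small proteoglycan biglycan, went from 8.41 and 11.4 to 3.83 and 3.93 CPM (-1.34), and LTBP2, a partner of elastic fibres, from 85.0 and 82.5 to 39.3 and 39.2 (-1.09). All of these were higher in both control libraries than in any ICM library. CEMIP, which breaks down hyaluronan, rose from 283 and 231 to 1001 and 935 CPM (1.91 ± 0.10, edgeR adjusted p = 1.676e-10), with 1876 and 1466 in the control. FBN2, the microfibril protein fibrillin-2, rose from 436 and 444 to 868 and 865 CPM (0.98 ± 0.09), and SVEP1, a cell adhesion protein of the matrix, from 1626 and 1874 to 3217 and 3496 (0.94 ± 0.09). The hyaluronan-binding proteoglycan VCAN and the hyaluronan-degrading CEMIP thus lay on opposite sides.

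Of 43 matrix proteases and their inhibitors, 8 rose and 6 fell (median 0.02). MMP1, the interstitial collagenase, fell from 962 and 841 to 447 and 433 CPM (-1.03 ± 0.09), and MMP10, stromelysin-2, from 68.3 and 63.4 to 38.9 and 37.6 CPM (-0.78 ± 0.10). Both days lay above the control, at 77.7 and 44.0 CPM for MMP1 and 2.15 and 0.78 for MMP10. Of the ADAMTS proteases, 1 that rose and 1 that fell are given here. ADAMTS5, an aggrecanase and versicanase, rose from 40.2 and 41.0 to 110 and 73.8 CPM (1.18 ± 0.14), and ADAMTS6 fell from 64.8 and 87.0 to 29.6 and 31.4 (-1.31 ± 0.12). In the plasminogen system, PLAT rose as given above and so did SERPINB2, an inhibitor of plasminogen activators, from 59.8 and 57.9 to 124 and 134 CPM (1.13 ± 0.09).

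Among 29 integrins and laminins 6 fell and 1 rose (median -0.06). ITGB3, the beta subunit of the vitronectin receptor, fell from 334 and 306 to 123 and 119 CPM (-1.40 ± 0.09), and the laminin chain LAMA5 from 153 and 147 to 57.4 and 56.8 (-1.39 ± 0.09).

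The smooth muscle program formed another group with lower levels. Myocardin (MYOCD) is a coactivator of serum response factor (SRF), which binds CArG boxes in front of contractile genes, and the MIR143 and MIR145 hairpins inside CARMN yield miRNAs known from differentiated smooth muscle. Their mature forms (RefSeq, GRCh38.p14, chromosome 5, plus strand) are shown here because CARMN had the largest decrease among genes averaging at least 5 CPM. Capitals mark the seed, bases 2 to 8, and no seed is shared between them.
hsa-miR-143-5p: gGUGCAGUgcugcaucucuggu
hsa-miR-143-3p: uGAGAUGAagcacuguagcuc
hsa-miR-145-5p: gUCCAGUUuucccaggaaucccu
hsa-miR-145-3p: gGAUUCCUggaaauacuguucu
CARMN (hg19, chr5:148786408-148812399, plus strand) fell from 13.1 and 11.2 to 1.37 and 1.08 CPM, a log2FC of -3.31 ± 0.23 (edgeR adjusted p = 9.935e-09), and the control had 37.7 and 50.6 CPM. At MIR145, a hairpin of 88 bases, 31 and 20 read pairs were counted after 3 days and 1 and 2 after 6 days, a 3-day to 6-day ratio of 17.8 with a 95% counting interval of 5.75 to 89.1. Short-RNA molecules are not what these libraries measure: a count on the hairpin is a fragment of the longer transcript. MIR145 lies within the span of CARMN but shares no exon base with it. At MIR143 no pair was counted in any of these libraries, because pairs on the 106 bases it shares with an exon of CARMN were given to neither.

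MYOCD (hg19, chr17:12569207-12672265, plus strand) stood at 88.9 and 104 CPM after 3 days and 21.9 and 18.8 after 6 days (-2.25 ± 0.12, edgeR adjusted p = 1.464e-10), with the control between the days at 43.7 and 59.8. SRF fell from 53.1 and 36.6 to 24.1 and 24.9 CPM (-0.88 ± 0.14), and its log2FC was -0.58, under the threshold, without 3-day replicate 1. Of 51 smooth muscle and contractile genes tested, 11 fell and 1 rose, with a median of -0.26. Those that fell included the sarcomere and junction proteins LDB3 (-2.07) and JPH2 (-1.76), the actin-associated PDLIM7 from 141 and 129 to 54.4 and 59.9 CPM (-1.24 ± 0.10), and the tropomyosin gene TPM1 from 632 and 625 to 289 and 310 CPM (-1.07 ± 0.09). SYNPO2, an actin-binding protein of the same list, rose from 28.4 and 33.5 to 47.9 and 54.1 CPM (0.73).

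The classical end products of the program were not called. ACTA2, smooth muscle actin, had 77.0 and 76.0 CPM after 3 days and 59.9 and 73.1 after 6 days (-0.20 ± 0.10, edgeR adjusted p = 0.1872), against 502 and 437 in the control. TAGLN had 72.4 and 61.1 against 49.0 and 57.7 CPM (-0.33 ± 0.11, edgeR adjusted p = 0.04481) and missed the call by the fold threshold only. MYH11, smooth muscle myosin, had 7.75 and 9.24 against 6.89 and 6.24 (-0.36 ± 0.18, edgeR adjusted p = 0.1798). On the other strand ACTA2 shares 516 exon bases with ACTA2-AS1, TAGLN shares 2232 of its 4260 with PCSK7, and MYH11 shares 477 with NDE1. The summed level of 8 markers of smooth muscle and pericytes, 2 of them called lower, was 331 to 340 CPM after 3 days, 249 to 270 after 6 days and 1040 to 1225 in the control. Both calls, CSPG4 (-0.64) and LMOD1 (-0.61), were lost after GC correction. RGS5 (0.47) and DES (0.58), not called, had positive log2FC, and the other markers had negative ones. The part of such cells in these values was not tested. Among promoters of RefSeq (GRCh38.p14, 250 bases before to 50 after the start), 1.28% of 27305 held a CArG box on either strand and 10 of 72 from the smooth muscle and immediate early lists did. That of SRF, chr6:43171019-43171318 on the plus strand, is printed because it holds 2, shown in capitals, beginning 30 and 10 bases before the start.
SRF: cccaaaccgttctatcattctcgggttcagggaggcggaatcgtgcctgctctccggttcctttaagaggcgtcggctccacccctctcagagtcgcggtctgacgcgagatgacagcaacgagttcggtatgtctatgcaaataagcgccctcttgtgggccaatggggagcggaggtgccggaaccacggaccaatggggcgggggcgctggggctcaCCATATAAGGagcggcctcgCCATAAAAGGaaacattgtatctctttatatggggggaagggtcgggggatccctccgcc

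Of the clock genes tested, 9 of 20 fell, with a median of -0.49, beside 4.54% of all genes. Since the list was chosen with earlier results known, that contrast is a description and not a test of the clock. The circadian oscillator is a feedback loop in which CLOCK and ARNTL activate PER and CRY genes through E-boxes and the PER and CRY proteins shut that activation off, while NR1D1 and NR1D2 form a second loop and TEF drives output genes. All 3 PER genes fell. PER2 (hg19, chr2:239152685-239197251, minus strand) went from 13.8 and 12.7 to 2.90 and 2.64 CPM (-2.26 ± 0.19, edgeR adjusted p = 9.093e-08), PER3 from 12.7 and 13.5 to 2.51 and 2.31 (-2.43 ± 0.20) and PER1 from 27.5 and 24.2 to 10.3 and 11.8 CPM (-1.22 ± 0.13). For each of the 3, the 3-day libraries lay near or above the control, which had 12.7 and 11.6 CPM for PER2, and the 6-day libraries lay below it.

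The rest of the 9 clock genes called lower were NR1D1, NR1D2, TEF, BHLHE40, CIART and CRY2. DBP and BHLHE41, also genes of the clock, were not among them. NR1D1, the nuclear receptor REV-ERB alpha, fell from 9.34 and 10.7 to 2.79 and 3.66 CPM (-1.63 ± 0.21), although 473 of its exon bases are opposite THRA, and NR1D2 fell from 51.2 and 45.9 to 29.6 and 27.7 CPM (-0.76 ± 0.11). TEF went from 6.11 and 5.54 to 1.91 and 1.45 CPM (-1.79 ± 0.25), and BHLHE40, an E-box repressor, from 48.5 and 46.3 to 26.1 and 24.9 (-0.89 ± 0.11), still above the 18.5 and 13.7 of the control. CIART, a repressor of CLOCK, had 4.23 and 4.995 CPM against 2.46 and 2.21 (-0.97 ± 0.25), and without 6-day replicate 2 its adjusted p was 0.07139. CRY2 was called at -0.64 ± 0.12 but had -0.51 without 3-day replicate 1, -0.54 without 6-day replicate 1 and -0.55 after GC correction, all under the threshold. Neither the activator CLOCK nor its relative NPAS2 was called, and ARNTL was not among the 9 either. CLOCK had 66.9 and 84.4 CPM against 80.1 and 78.8 (0.08 ± 0.11, adjusted p = 0.678), with groups that overlapped, and its relative NPAS2 had 10.1 and 10.3 CPM after 3 days against 14.4 and 14.7 after 6 days (0.52 ± 0.15), under the fold threshold.

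The E-box CACGTG was found in 5 of the 19 clock promoters in RefSeq and in 7.43% of all 27305. Promoters are shown for 3 genes that fell, each 300 bases of GRCh38.p14 read 5′ to 3′ on the gene's strand, with the E-box in capitals: PER1 at chr17:8152355-8152654 (minus), TEF at chr22:41367205-41367504 (plus) and CIART at chr1:150282304-150282603 (plus). The match begins 173 bases before the start in PER1, 195 in TEF, and 129, 71 and 57 in CIART. PER2 and PER3 were not among the 5, which says only that these letters are not in that window.
PER1: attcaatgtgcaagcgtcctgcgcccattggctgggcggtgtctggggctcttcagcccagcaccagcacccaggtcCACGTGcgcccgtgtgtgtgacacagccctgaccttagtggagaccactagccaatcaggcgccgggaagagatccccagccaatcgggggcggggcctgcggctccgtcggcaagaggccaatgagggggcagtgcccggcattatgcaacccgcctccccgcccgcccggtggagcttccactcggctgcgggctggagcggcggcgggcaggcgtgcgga
TEF: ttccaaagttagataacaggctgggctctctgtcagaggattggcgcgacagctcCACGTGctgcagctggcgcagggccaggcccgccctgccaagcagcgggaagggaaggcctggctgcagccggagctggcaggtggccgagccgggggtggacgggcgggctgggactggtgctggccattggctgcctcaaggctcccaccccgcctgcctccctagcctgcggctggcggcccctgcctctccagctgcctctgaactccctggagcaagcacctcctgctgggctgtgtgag
CIART: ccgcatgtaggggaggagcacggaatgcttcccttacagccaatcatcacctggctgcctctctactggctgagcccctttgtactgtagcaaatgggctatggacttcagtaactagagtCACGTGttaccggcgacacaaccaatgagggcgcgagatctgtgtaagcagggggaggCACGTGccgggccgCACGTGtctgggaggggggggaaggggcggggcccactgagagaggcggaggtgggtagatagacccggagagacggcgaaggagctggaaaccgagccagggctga

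Immediate early genes, transcribed within minutes of a stimulus, gave 7 lower and 1 higher of 34 (median -0.26). Without 3-day replicate 1, the library with the most read pairs, 3 were lower. ARC, a regulator of synaptic receptors that is induced with this group, was counted 69 and 30 times after 3 days and 3 and 5 times after 6 days, or 3.24 and 2.05 against 0.16 and 0.27 CPM (-3.60 ± 0.47), and 1 time in both control libraries together. EGR2 had 18 and 8 counts against 2 and 1, a 3-day to 6-day ratio of 9.07 with a 95% counting interval of 2.78 to 46.8, and without 6-day replicate 2 its adjusted p was 0.09736. NR4A2, an orphan nuclear receptor, was the member that rose, from 17.5 and 16.9 to 45.6 and 29.5 CPM (1.12 ± 0.16). FOS, the founding member of this group, was not called, with 12.5 and 11.4 against 12.9 and 17.9 CPM (0.37 ± 0.16, edgeR adjusted p = 0.1224).

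KLF transcription factors, which bind GC-rich elements and partly belong to the same group, gave 5 lower and 1 higher of 17 (median -0.32). KLF7 fell from 162 and 168 to 53.4 and 55.5 CPM (-1.60 ± 0.09, edgeR adjusted p = 5.243e-10), and the control had 94.98 and 112. KLF9, a target of glucocorticoid and thyroid hormone receptors, fell from 34.9 and 39.1 to 15.6 and 12.97 CPM (-1.37 ± 0.13), and KLF4 from 4.13 and 3.97 to 1.69 and 1.94 CPM (-1.16 ± 0.27). For KLF7 and KLF9 the order was a 3-day level above and a 6-day level below the control. KLF15 was called higher at under 1 CPM, from 6 and 3 to 15 and 14 counts (1.63 ± 0.54), and lost the call without any 1 of the 4 libraries, with adjusted p from 0.1067 to 0.2489.

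Genes of the cell cycle were already far below the control after 3 days, and part of them fell further. MKI67, the Ki-67 antigen of dividing cells, had 560 and 634 CPM in the control, 21.9 and 28.2 after 3 days and 12.03 and 13.3 after 6 days (-0.97 ± 0.14, edgeR adjusted p = 7.34e-05). CENPF, a kinetochore protein, fell from 25.4 and 28.3 to 14.7 and 16.2 CPM (-0.79 ± 0.13). Of 58 mitotic genes tested, 7 were lower (median -0.22). None was higher by edgeR, 2 were at an unadjusted p under 0.05, and DESeq2 called 0 higher and 4 lower, as against 3 lower by edgeR without 6-day replicate 1. Of 74 genes of DNA replication, 5 were lower and 1 higher (median -0.18), and the lower count was 11 without 3-day replicate 1. In this replication list the shares were 6.76% lower and 1.35% higher, beside 4.54% and 3.53% over all genes. The helicase BRIP1 fell from 20.99 and 26.7 to 12.5 and 13.1 CPM (-0.89 ± 0.14) and the repressor E2F7 from 13.05 and 16.1 to 5.69 and 6.08 CPM (-1.30 ± 0.17). RPA2, a subunit of the single-strand binding complex RPA, rose from 11.6 and 9.37 to 18.8 and 17 CPM (0.76 ± 0.15).

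Replication-dependent histone genes had the lowest median of the 43 lists, -0.61, with 37 members below 0 and 12 above. Their summed level did not fall, however, at 319 and 297 CPM after 3 days and 300 and 313 after 6 days. The control had 1403 and 1225. Of 49 tested, 12 were lower and 2 higher, 0 being higher without 6-day replicate 2, and the lower count was 7 without 3-day replicate 1, 6 without 6-day replicate 1, 5 without 6-day replicate 2 and 4 by DESeq2. The transcripts of these genes normally end in a stem-loop without a poly(A) tail, and many copies are near-identical, so that reads can be lost or split between copies. The linker histone H1-5 had 113 and 103 CPM in the control, 7.65 and 8.28 after 3 days and 2.57 and 3.12 after 6 days (-1.48 ± 0.21), and H1-4 fell from 24.9 and 22.4 to 12.6 and 12.2 CPM (-0.93 ± 0.13). H4C6 fell from 2.77 and 3.69 to 0.98 and 1.34 CPM (-1.45 ± 0.32). H4C8 was called higher at 0.66 but had 0.57 without 3-day replicate 2 and 0.59 without 6-day replicate 2. H2AC15, also called higher (1.09 ± 0.37), had an adjusted p of 0.2092 without 3-day replicate 2, 0.05815 and 0.2051 without 6-day replicates 1 and 2, and 0.1443 by DESeq2, and its log2FC was 1.91 without 3-day replicate 1.

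A pair of D-type cyclins, which open the way from G1 to S phase, rose. CCND1 went from 390 and 370 to 623 and 613 CPM (0.70 ± 0.09, edgeR adjusted p = 9.846e-06), above the 478 and 388 of the control. CCND2 went from 10.3 and 8.69 to 15.0 and 16.6 CPM (0.73 ± 0.15), still below the 25.3 and 29.9 of the control. CCND1 and CCND2 were the 2 members higher among 20 genes of the CDK inhibitors, D cyclins and RB family (median 0.04), 4 being higher without 3-day replicate 1. CDKN1C, the inhibitor p57, was the member that was lower, with 3.01 and 2.12 against 0.98 and 1.24 CPM (-1.22 ± 0.33), but the adjusted p was 0.1255 without 3-day replicate 1, 0.1183 without 6-day replicate 1 and 0.07699 by DESeq2. Of 48 targets of p53, 4 were lower and 0 higher by edgeR (median 0.05), with 10 higher at an unadjusted p under 0.05 and 0 by DESeq2. The higher count was 3 without 3-day replicate 1, and 1 without 3-day replicate 2 or 6-day replicate 1. The lower count was 2 without 3-day replicate 1 and 1 after GC correction.

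Secreted signals rose in part. Of 29 senescence-associated cytokines and chemokines tested, 5 rose and 1 fell, with a median of 0.08, and the others were not called. CCL2, the monocyte chemoattractant, went from 2.63 and 2.05 to 10.3 and 8.12 CPM (1.95 ± 0.23, edgeR adjusted p = 5.073e-06), near the 8.10 and 7.16 of the control. CXCL8, interleukin-8, went from 8.73 and 6.36 to 22.4 and 24.4 CPM (1.61 ± 0.15), while its control libraries stood at 23.9 and 2.50, far apart from each other. The neutrophil chemokine CXCL3, a near copy of its neighbours CXCL1 and CXCL2, went from 1.55 and 0.82 to 6.18 and 5.11 CPM (2.18 ± 0.29), with 2.77 without 3-day replicate 1. IL1B rose from 1.22 and 1.57 to 3.77 and 3.77 CPM (1.45 ± 0.29). SPP1, osteopontin, was not counted in the control and rose from 9.39 and 9.72 to 20.1 and 23.8 CPM (1.20 ± 0.14). TNFSF15 was lower (-1.66 ± 0.50), but its adjusted p was 0.1329 without 3-day replicate 1 and 0.2851 without 6-day replicate 2.

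EREG and AREG, which encode ligands of the EGF receptor, rose. EREG, epiregulin, went from 6.81 and 6.98 to 25.6 and 22.01 CPM (1.79 ± 0.15, edgeR adjusted p = 5.932e-08), and AREG, amphiregulin, which is annotated at 2 copies in hg19, from 1.13 and 0.68 to 5.96 and 2.53 CPM (2.17 ± 0.39), or 1.45 without 6-day replicate 1. DUSP6, a phosphatase that is switched on by ERK and inactivates it, rose from 56.1 and 45.2 to 83.7 and 89.9 CPM (0.77 ± 0.11). FLT1, a VEGF receptor, fell from 3.47 and 3.56 to 1.37 and 1.29 CPM (-1.40 ± 0.29). These belong to a list of 56 growth factors, receptors and MAPK feedback genes, of which 6 rose and 3 fell (median 0.09).

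Interferon-stimulated and antigen presentation genes went the other way, with 9 of 57 lower and 1 higher (median -0.20) and 5 lower by DESeq2. The guanylate-binding proteins GBP1 and GBP2, near-identical in part, fell from 132 and 123 to 49.2 and 63.5 CPM (-1.18 ± 0.11) and from 45.6 and 41.6 to 17.6 and 17 CPM (-1.33 ± 0.11). Their transcription factor IRF1 fell from 66.2 and 57.5 to 32.0 and 35.7 CPM (-0.87 ± 0.11), and NLRC5, the transactivator of MHC class I genes, from 71.3 and 66.2 to 38.5 and 39.98 (-0.81 ± 0.10). USP18, a brake on interferon signalling, was called higher (0.96 ± 0.29), but its adjusted p was 0.1508 and 0.206 without replicate 1 of 3 or of 6 days and 0.1212 by DESeq2.

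Among 30 subunits, inhibitors and targets of NF-kB 5 were lower and 2 higher (median -0.08), and 2 were lower without 6-day replicate 2. MAP3K8, a kinase upstream of ERK, fell from 18.8 and 16.2 to 9.78 and 9.79 CPM (-0.85 ± 0.14). VCAM1, the adhesion molecule for leukocytes, rose from 15.2 and 13 to 29.0 and 27.4 CPM (0.99 ± 0.13), though the control had 154 and 176. The zinc and iron carrier SLC39A14 rose from 65.6 and 53.9 to 105 and 92.7 CPM (0.72 ± 0.11), with 0.58 without 3-day replicate 2. Of 16 complement genes, 3 were higher and 1 lower (median 0.07). MASP1, a protease of the lectin pathway, rose from 91.4 and 85.5 to 163 and 157 CPM (0.85 ± 0.09). CFB, the protease partner of C3, was lower (-0.76 ± 0.21), but the adjusted p was 0.1512 and 0.05419 without 6-day replicates 1 and 2 and 0.06794 by DESeq2.

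Of 50 genes of TGF-beta and BMP signalling tested, 8 rose and 6 fell, with a median of 0.02, and DESeq2 called 5 higher. Beside BMPER, those that rose included the ligands BMP2, from 84.5 and 77.6 to 135 and 128 CPM (0.70 ± 0.09), and BMP6, from 12.2 and 10.4 to 21.1 and 18.2 CPM (0.79 ± 0.14), of whose exons 694 bases are opposite TXNDC5. FST, follistatin, which traps activin, rose from 83.5 and 66.2 to 192 and 139 CPM (1.14 ± 0.13), and the related secreted protein FSTL1 from 914 and 825 to 1562 and 1533 (0.83 ± 0.09). Among those that fell were 3 genes that TGF-beta induces and that restrain it. SKIL went from 121 and 133 to 68.4 and 64.2 CPM (-0.94 ± 0.09), SMAD7 from 17.99 and 17.4 to 9.56 and 9.58 (-0.89 ± 0.14) and PMEPA1 from 11.4 and 9.51 to 4.65 and 2.80 CPM (-1.50 ± 0.22).

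The lists of WNT, Notch and IGF signalling held few genes called. Shares for WNT were 5.26% higher and 10.5% lower, beside 3.53% and 4.54% over all genes. Those for Notch and IGF rest on 1 or 2 genes. Of 38 WNT genes 4 were lower and 2 higher (median -0.11). The higher count was 4 without 3-day replicate 1 and 1 without either 6-day library, and the lower count was 2 without 6-day replicate 2. The ligand WNT16 rose from 4.46 and 3.01 to 10.6 and 8.34 CPM (1.31 ± 0.22), and LRP4, a receptor that binds sclerostin and agrin, fell from 16.3 and 14.6 to 6.12 and 5.17 CPM (-1.46 ± 0.17). Of 14 Notch genes 1 was higher and 1 lower. The ligand DLL4 rose from 2.30 and 1.23 to 4.81 and 5.17 CPM (1.44 ± 0.28). The effector HES1 had 22 and 9 counts against 3 and 4 (-2.13 ± 0.58), and its adjusted p was 0.1738 without 3-day replicate 1, 0.1528 without 6-day replicate 1 and 0.09344 without 6-day replicate 2. Of 19 genes of the IGF axis 2 rose. IGFBP3, the main carrier of IGF in serum, rose from 71.9 and 70.7 to 165 and 164 CPM (1.21 ± 0.09, edgeR adjusted p = 1.815e-08), where the control had 177 and 151, and STC2, an inhibitor of the protease that cleaves IGF carriers, from 265 and 249 to 504 and 507 CPM (0.97 ± 0.09).

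Among genes of the amino acid and endoplasmic reticulum stress responses 8 of 48 rose, with a median of 0.20. HSPA5 encodes BiP, the chief chaperone of that compartment. HSPA5 (hg19, chr9:127997132-128003622, minus strand) went from 266 and 283 to 645 and 667 CPM (1.26 ± 0.09, edgeR adjusted p = 7.78e-09), near the 603 and 675 CPM of the control. DNAJB9, a cochaperone of BiP, rose from 12.4 and 8.35 to 29.5 and 28.6 CPM (1.46 ± 0.15), above the control, at 10.4 and 10.1. DESeq2 also called 8 higher. The ER stress response element, searched as CCAAT and CCACG with 9 bases between them, was found on either strand in 0.08% of 27305 promoters and in 4 of the 43 of this list that RefSeq holds. The HSPA5 promoter (GRCh38.p14, chr9:125241294-125241593, minus strand) is printed because it carries 1, in capitals, beginning 66 bases before the start.
HSPA5: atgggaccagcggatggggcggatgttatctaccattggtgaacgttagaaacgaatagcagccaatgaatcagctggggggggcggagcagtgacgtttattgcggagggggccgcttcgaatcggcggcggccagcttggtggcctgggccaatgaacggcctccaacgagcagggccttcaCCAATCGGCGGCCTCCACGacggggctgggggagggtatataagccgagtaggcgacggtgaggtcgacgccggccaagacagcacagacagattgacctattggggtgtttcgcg

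Metallothioneins are small proteins that bind zinc and copper and are induced by these metals through the factor MTF1. A list of metallothioneins and zinc transporters held 12 genes, of which 5 were tested, the others being at low counts: MT1E, MT1X, MT2A and the transporters SLC30A1 and SLC39A10. Of these 3 rose. MT1E went from 4.04 and 3.63 to 16.02 and 18.1 CPM (2.15 ± 0.17, edgeR adjusted p = 5.121e-08), past the 9.33 and 10.7 of the control. MT1X went from 0.61 and 0.82 to 2.13 and 2.21 CPM (1.62 ± 0.37), and the zinc exporter SLC30A1 from 76.3 and 66.6 to 151 and 139 CPM (1.02 ± 0.10). MT2A, the most widely expressed of the family, had 89.3 and 91.0 against 99.0 and 96.3 CPM (0.12 ± 0.09, adjusted p = 0.4041), and SLC39A10 was not called (0.30). MT1 genes are close copies of each other on chromosome 16, and reads that fitted more than 1 of them were not counted. The metal response element, searched as TGCACNC or TGCGCNC on both strands, occurred in 29.4% of all promoters and in 4 of 6 of this list. That of MT1X (GRCh38.p14, chr16:56682220-56682519, plus strand) holds 4, in capitals, beginning 150, 122, 78 and 53 bases before the start.
MT1X: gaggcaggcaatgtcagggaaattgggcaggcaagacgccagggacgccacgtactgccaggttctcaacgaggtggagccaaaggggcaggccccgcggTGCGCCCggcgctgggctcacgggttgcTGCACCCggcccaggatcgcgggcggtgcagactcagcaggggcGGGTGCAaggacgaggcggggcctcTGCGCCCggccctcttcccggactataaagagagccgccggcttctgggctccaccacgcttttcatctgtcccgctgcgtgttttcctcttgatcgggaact

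In the other stress and metabolic groups few genes were called. The share called higher was 4.44% for NRF2 targets, 6.45% for heat shock genes and 2.5% for cholesterol genes, beside 3.53% of all genes. Of 45 targets of NRF2, the factor of the oxidative stress response, 2 rose and 0 fell by edgeR (8 lower at an unadjusted p under 0.05, 0 by DESeq2), with a median of 0.06. With 1 library left out the higher count was 1 to 3, and the lower count was 2 without 3-day replicate 2 or 6-day replicate 1. GCLM, a subunit of the enzyme that starts glutathione synthesis, stood at 344 and 338 CPM after 3 days and 504 and 542 after 6 days (0.62 ± 0.09), against 72.0 and 74.7 in the control. It lost the call with log2FC of 0.56 to 0.60 without 6-day replicate 2 or 3-day replicate 2, and had 0.51 after GC correction. TRIM16L rose from 13.2 and 11.4 to 23.9 and 25.8 CPM (1.01 ± 0.13). CYP1B1, a target of the aryl hydrocarbon receptor, rose from 143 and 137 to 288 and 257 CPM (0.96 ± 0.09), again above the control of 77.4 and 67.9. Of 31 heat shock and chaperone genes 2 rose, among them DNAJB4, from 108 and 115 to 182 and 211 CPM (0.82 ± 0.09), 1 was called higher after GC correction, and 15 were higher at an unadjusted p under 0.05 (median 0.29). Of 40 genes of cholesterol synthesis and uptake 1 was called higher (median 0.08), and edgeR called 0 lower, with 5 lower at an unadjusted p under 0.05, 0 by DESeq2, 3 after GC correction and 2 without 6-day replicate 1.

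Glycolysis and hypoxia genes were split, with 5 higher and 3 lower of 41 (median -0.09). Without 3-day replicate 2 the counts were 3 higher and 5 lower, and without 6-day replicate 2 they were 3 and 3. HK2, the hexokinase that commits glucose to use in the cell, rose from 132 and 143 to 288 and 278 CPM (1.05 ± 0.09), and the peptide hormone gene ADM from 246 and 211 to 415 and 445 CPM (0.91 ± 0.09). PDK4, which shuts glucose carbon out of the mitochondrion, rose from 218 and 204 to 458 and 322 CPM (0.89 ± 0.12). CA9, carbonic anhydrase IX, fell from 5.03 and 4.58 to 1.53 and 1.18 CPM (-1.83 ± 0.28), and NDRG1 from 324 and 303 to 150 and 141 CPM (-1.11 ± 0.09). ADM, CA9 and NDRG1 are all known targets of the hypoxia-inducible factors.

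By edgeR, 0 of 78 cytosolic ribosomal protein genes were called, although their median was 0.17 and 25 were higher and 0 lower at an unadjusted p under 0.05. DESeq2 also called 0. Of 68 nuclear genes of oxidative phosphorylation, 0 were called by edgeR and 0 by DESeq2, 16 being higher and 5 lower at an unadjusted p under 0.05 (median 0.12). With 3-day replicate 1 left out 3 of them were called higher, and after GC correction 1.

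Among long noncoding RNAs kept in the nucleus, 4 of 35 were lower and 1 higher (median 0.07). NEAT1 is the scaffold of paraspeckles. It fell from 18570 and 14100 to 6869 and 7847 CPM (-1.15 ± 0.11, edgeR adjusted p = 6.915e-07), and the control, at 8828 and 9229, lay between the days. MIAT fell from 53.9 and 49.9 to 25.1 and 24.6 CPM (-1.06 ± 0.11), to near the 27.4 and 32.4 of the control, and CASC15 from 7.65 and 9.51 to 2.62 and 2.15 CPM (-1.83 ± 0.22). LINC00968 rose from 8.92 and 9.10 to 22.6 and 20.4 CPM (1.26 ± 0.14).

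Genes of fibroblast and lung identity were called on both sides, 5 higher and 4 lower of 30 (median -0.02). TCF21, a transcription factor of lung and heart mesenchyme, rose from 43.0 and 45.8 to 138 and 130 CPM (1.59 ± 0.10, edgeR adjusted p = 9.62e-10), above the 52.5 and 48.7 of the control. GLI2, an effector of hedgehog signalling, fell from 46.5 and 49.8 to 26.4 and 25.4 CPM (-0.89 ± 0.11). POT1, which covers the single-stranded end of telomeres, was the 1 of 22 telomere genes to be called, and 2 were higher after GC correction. That share of 4.5% higher is near the 3.53% of all genes. POT1 rose from 26.2 and 28.5 to 52.0 and 46.4 CPM (0.85 ± 0.11), with 111 exon bases opposite POT1-AS1.

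Ion channel and calcium genes gave 6 higher and 5 lower of 44 (median 0.17). ITPR1, which releases calcium from internal stores, rose from 97.3 and 98.5 to 202 and 175 CPM (0.95 ± 0.09), and the chloride channel ANO1 from 3.57 and 2.74 to 8.31 and 8.23 CPM (1.37 ± 0.21), where the control had 52.5 and 45.5. CACNA1H, a T-type calcium channel, fell from 8.31 and 8.07 to 3.39 and 3.07 CPM (-1.34 ± 0.20). Of 21 prostaglandin genes 2 were lower, and among them PTGIS, prostacyclin synthase, was counted 31 and 32 times after 3 days and 8 and 6 times after 6 days (-2.21 ± 0.45), as against 216 and 166 times in the control.

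Gene classes differed in the share called. Solute carriers with an SLC symbol were higher in 23 of 276, or 8.33%, and lower in 1.81%. KRAB and other zinc finger genes with a ZNF symbol were called less often in both directions, 1.77% higher and 0.98% lower of 509. Antisense transcripts were lower in 7.04% and higher in 1.6% of 625, whereas LINC transcripts were higher in 6.00% and lower in 2.80% of 250. Genes spanning more than 400 kilobases were higher in 5.25% and lower in 8.33% of 324, and genes of a single exon in 1.51% and 7.28% of 1195. These shares stand beside 3.53% and 4.54% over all genes. Classes differ in level and in GC content too, as the median of 14.5 CPM over all genes and of 2.09 over antisense transcripts shows, and the part of either was not tested.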

How the data were processed

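Deposited values were raw read pair counts per gene, 1 library a file. Per the file headers and the submitters' processing notes, the authors aligned paired reads to hg19 (GRCh37) with STAR 2.6.0c and counted them on RefSeq exons with featureCounts 1.6.3: both ends mapped, no chimeric pairs, strand not used, and pairs that fitted several loci or genes left out. The paper describes analysing factory RNA-seq on intronic read counts with the iRNAseq package, whereas the deposited exon counts were tested here. The RUVs normalisation that it describes for poly(A)-selected RNA was not run either.

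Genes were tested with edgeR 4.0.16 in R 4.3.3 (glmQLFit and glmQLFTest, TMM, filterByExpr with a count minimum of 10) on the 4 libraries alone, with Benjamini-Hochberg adjustment. The CPM printed are counts scaled to 1000000 pairs of the TMM-scaled total, with factors taken over the 8 libraries, and ± is the SE of the log2FC. Tables and figures used pandas 2.3.3, scipy 1.17.1 and matplotlib 3.10.9. Alternatives were DESeq2 1.42.0, other scalings, filters and thresholds, a fit of all 8 libraries, the replicate block, thinning, leaving out each library, and the GC correction added after seeing the data. On simulated counts for 15622 genes, 93% of 2-fold and 100% of 4-fold changes were recovered, with 2 false calls. Those counts had the dispersion trend of the fit as their only spread, and the changed genes were all above 2 CPM. They held no GC trend and no deviating library, so these rates may not hold for the real libraries. Totals of 14400220 to 21230563 pairs and 2 libraries a group set the precision, and counting intervals (exact, 95%) cover counting error only.

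Members and gene lists were chosen with earlier results of these data known. Named genes were the 12 largest called changes per direction with non-overlapping libraries and at least 5 CPM on average, up to 3 called members per list and direction with at least 10 counts in each library of the higher group, anchor genes of the lists whatever their result, the 3 smallest p-values per direction, and hosts or overlapping genes. Only some of those qualifying are described. Promoters and miRNAs are from RefSeq (GRCh38.p14) and gene coordinates from the counted annotation.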

Additional observations from a re-analysis of the deposited data

How the results depend on the processing

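With no minimum log2FC, 1531 genes were higher and 1530 lower. Leaving out 1 library at a time gave 449 to 666 higher and 534 to 867 lower, the fewest without a 6-day library. DESeq2 called 422 and 486, an adjusted p under 0.01 left 420 and 489, and library totals in place of TMM, which moved the median of all genes by -0.04, gave 487 and 803. The libraries carry the same replicate numbers on both days. With the replicate number as a block, 621 genes were higher and 829 lower, of which 555 and 717 were among those called without the pairing. The differences between replicates 1 and 2 correlated at 0.12 between the days, but with only 2 pairs and no label tying them the samples share only a number. Of 137 called genes named here, 10 lost the call under at least 1 alternative other than leaving out a library and 14 without a library, and 0 changed direction. Of the genes not called, COL3A1 changed sign with library totals (-0.0044) and ranged from -0.076 to 0.13 with 1 library left out, and CLOCK changed sign after GC correction (-0.027) and ranged from -0.087 to 0.24 with 1 library left out. Of 43 list medians, 8 changed sign under an alternative other than leaving out a library. With 2 libraries a group, genes under 1 CPM rested on few counts.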
